A study of Mus musculus with 16 samples.

Results

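The comparison of multipotent progenitors (MPP) with granulocyte-monocyte progenitors (GMP) rested on 6 of the 16 miR arrays of the series, 3 of each population, chosen by the population named in the sample titles. Both populations were sorted from bone marrow of female C57Bl/6 mice aged 6 to 8 weeks, with 10 to 20 mice pooled for a replicate sample. The marrow was depleted of lineage-positive cells and enriched for c-kit, so every array held lineage-negative, c-kit-expressing cells. MPP were gated as Sca1+ CD34+ FLT3+ in the sort of the stem cell subsets, and GMP as Sca1- CD34+ FcRg+ in a separate sort of the myeloid progenitors. The titles of MPP 1 and GMP 3 carry no number, so those 2 numbers are names given here. Nothing in the sources used here says that replicates of the same number shared mice or a sort, and the p-values below measure only the spread between pooled samples. In the main fit of miR levels that spread was estimated over all 16 arrays, so it includes the spread within the other populations and between their slides.

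MPP still give rise to lymphoid and myeloid cells but no longer renew themselves for long, whereas GMP are committed to granulocytes and monocytes, and common myeloid progenitors (CMP) lie between them in the usual scheme. A miR is a short RNA that is cut from a hairpin transcript, and it guides a silencing complex to messenger RNAs that pair with its seed, bases 2 to 8 from its 5′ end. Members of a family share a seed and can repress overlapping sets of messengers, and several miRs are often cut from the same primary transcript. In blood formation the miR-125 and miR-99 families, miR-126 and the miRs of the Hox clusters are known from stem cells, miR-150 and miR-128 from lymphoid cells, and miR-223 from granulocytes and monocytes. The question put to the data was which miRs differed in level between a population that is still multipotent and one that is committed to the myeloid lineage.

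The arrays of MPP and GMP shared no slide, so population and slide cannot be told apart within these 6 arrays. All MPP arrays lay on slide 3, GMP 1 and GMP 2 on slide 1, and GMP 3 on slide 2. Slide 1 was read on an older scanner model, and the 95th percentile of its negative controls was 17.3 units on GMP 1 and 13.3 on GMP 2, against 2.19 on GMP 3 and 1.99 to 3.35 on the MPP arrays. Summed signal before normalization was 144600 to 164300 units on the MPP arrays, 283700 and 336400 on GMP 1 and GMP 2, and 113700 on GMP 3, with 0 saturated spots. Only ST-HSC, the short-term stem cells, lay on both slides 2 and 3, with 1 and 2 arrays. Over the 237 tested miRs the MPP arrays correlated with each other at r = 0.988 to 0.994 and GMP 1 with GMP 2 at 0.99, GMP arrays of different slides at 0.943 to 0.964, and MPP with GMP arrays at 0.845 to 0.885.

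The mature sequences of the miRs on which the results turn are shown first, so that families can be seen. They were taken from RefSeq (GRCm38.p6), where 184 of the 237 tested miRs had a match, and capitals mark the seed. The miRs of the first set were higher in MPP. The members with the seed CCCUGAG or ACCCGUA come from related clusters that pair a miR-125 with a miR-99 and a let-7. Pairs that differ at 1 base, such as miR-17 and miR-106a, miR-10a and miR-10b, miR-99a and miR-100, or let-7a and let-7e, may share binding on probes, so the levels of such a pair are not fully separate measurements.
let-7e: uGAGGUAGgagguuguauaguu
miR-125a-5p: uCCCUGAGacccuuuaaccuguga
miR-125b-5p: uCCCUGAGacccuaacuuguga
miR-99a: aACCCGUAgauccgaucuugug
miR-99b: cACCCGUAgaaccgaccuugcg
miR-196b: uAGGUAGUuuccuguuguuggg
miR-10a: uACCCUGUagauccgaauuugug
miR-126-3p: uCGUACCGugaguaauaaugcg
miR-128: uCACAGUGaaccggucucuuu
miR-203: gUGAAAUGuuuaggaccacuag
miR-224: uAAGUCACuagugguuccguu

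The second set was higher in GMP. Its first members have unrelated seeds, while miR-17, miR-106a, miR-93, miR-20a and miR-20b share AAAGUGC, and the seed of miR-18a differs from it.
miR-223: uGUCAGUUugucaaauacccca
miR-338-3p: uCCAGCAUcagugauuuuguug
miR-149: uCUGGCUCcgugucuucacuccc
miR-7a: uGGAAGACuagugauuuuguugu
miR-148a: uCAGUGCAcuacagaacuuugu
miR-17: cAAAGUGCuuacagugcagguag
miR-106a: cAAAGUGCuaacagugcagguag
miR-93: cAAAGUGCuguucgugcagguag
miR-20a: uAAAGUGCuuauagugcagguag
miR-20b: cAAAGUGCucauagugcagguag
miR-18a: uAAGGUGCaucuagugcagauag

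The third set belongs to families whose members were called in opposite directions between MPP and GMP, with the seeds AUUGCAC and AGCAGCA.
miR-92a: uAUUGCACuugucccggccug
miR-25: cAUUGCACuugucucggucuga
miR-32: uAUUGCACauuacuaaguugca
miR-363: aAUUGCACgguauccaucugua
miR-16: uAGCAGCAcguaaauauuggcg
miR-195: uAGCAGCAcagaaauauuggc
miR-15a: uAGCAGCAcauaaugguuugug

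MPP and GMP differed in the levels of 101 of the 237 tested miRs (42.6%), by limma with Benjamini-Hochberg adjustment at an adjusted p under 0.05. Of these, 51 (21.5%) were higher in MPP and 50 (21.1%) higher in GMP. The MPP and GMP arrays did not overlap for 100 of the 101, against 149 (62.9%) of all tested miRs, with MPP above for 85 (35.9%) and GMP above for 64 (27%). Of the called miRs 65 were well above background on all 6 arrays, against 152 of the 237 tested. Another 13 called miRs were not well above background on any GMP array and 9 on any MPP array. The mean of the CMP arrays lay between those of MPP and GMP for 76 of the called miRs. It was nearer to the GMP mean for 81 of the called miRs, although the CMP arrays lay on the same slides as the GMP arrays. These counts were not taken over all tested miRs, and calls favour a wide gap between MPP and GMP, so no course through CMP is read from them. Each array held RNA of a sorted pool, so fewer cells with a miR and less of it per cell cannot be told apart.

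Differences between slides within a population were of the same order as those between MPP and GMP. The median absolute difference over the 237 miRs was 0.72 on the log2 scale between MPP and GMP, 0.16 between the GMP arrays of slide 1, 0.40 between the GMP arrays of slide 1 and that of slide 2, and 0.77 between the ST-HSC arrays of slides 3 and 2. For 96 of the 101 called miRs the MPP minus GMP difference was larger than the difference between GMP slides, against 151 of the 237 tested. Of the called miRs, 74 had a difference larger than both slide differences, 36 of them higher in MPP and 38 higher in GMP. This number was not counted over all tested miRs. The plot of cumulative shares sets these sizes beside each other.

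**Figure D1:**
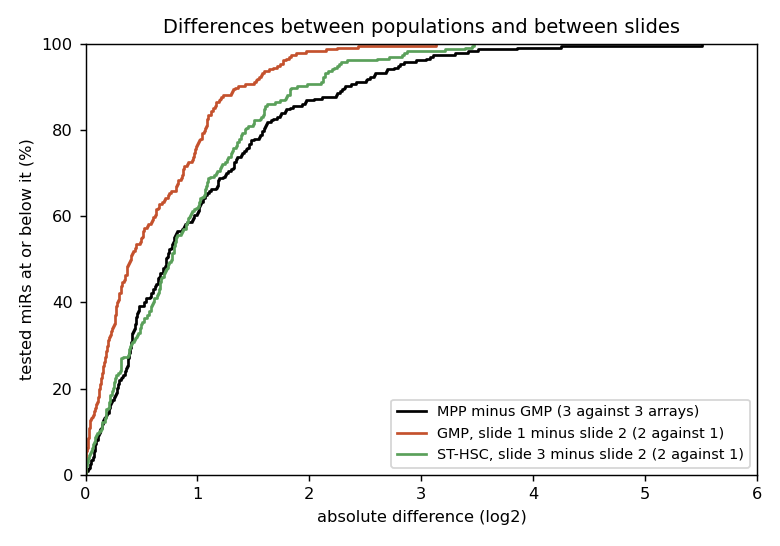
Share of the 237 tested miRs (%, vertical axis) with an absolute log2 difference at or below the value on the horizontal axis, for MPP minus GMP (black), the GMP arrays of slide 1 minus that of slide 2 (red) and the ST-HSC arrays of slide 3 minus that of slide 2 (green). The curves of MPP minus GMP and of ST-HSC, with medians of 0.72 and 0.77, lie close together up to about their middle, and the largest differences are those between MPP and GMP.

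A fit with slide as a block, in which MPP and GMP are linked through the populations that lie on 2 slides, called 85 miRs (35.9%), 52 higher in MPP (21.9%) and 33 higher in GMP (13.9%). It called 46 of the 101 in the same direction (19.4% of all tested), 29 higher in MPP and 17 higher in GMP. Another 53 were no longer called, 2 were called in the opposite direction, and 37 were called only with the block. With the block 43 of the 74 called miRs beyond both slide differences were called in the same direction. Slide 3 joins this fit only through ST-HSC, and slide 2 held 1 ST-HSC array, so each blocked value rests on that array. For this reason both values stand beside each other below, and a call made in both fits is named as such.

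**Figure D2:**
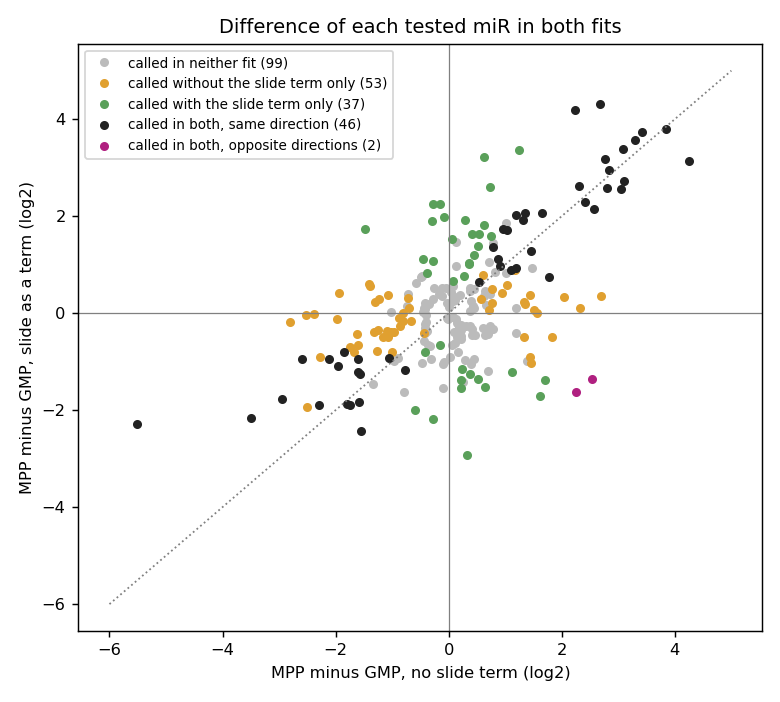
MPP minus GMP difference (log2) of each tested miR, a point each, without a slide term (horizontal axis) and with slide as a block (vertical axis), coloured by the fits that called it, with equal values on the dotted line. The 46 miRs called in both fits in the same direction (black) lie at the lower left and upper right, the 53 called without the slide term only (orange) lie mostly near 0 on the vertical axis, and the 2 called in opposite directions (purple) lie at the lower right.

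Of the 101 called miRs, 19 were called in the same direction under every one of the 26 alternatives that tested them, 9 higher in MPP and 10 higher in GMP. Those higher in MPP were let-7e, miR-150, miR-128, miR-196b, miR-125b-5p, miR-99a, miR-126-3p, miR-126-5p and miR-203. Those higher in GMP were miR-338-3p, miR-149, miR-7a, miR-223, miR-106a, miR-17, miR-93, miR-378, miR-148a and miR-18a. Of these, miR-150, miR-126-5p and miR-203 were well above background on 2 of the 3 GMP arrays, let-7e on 1, and miR-149 on 2 of the 3 MPP arrays, so the sizes of their differences are not firm. Their values on the 6 arrays are plotted, and they are described below with the groups to which they belong.

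**Figure D3:**
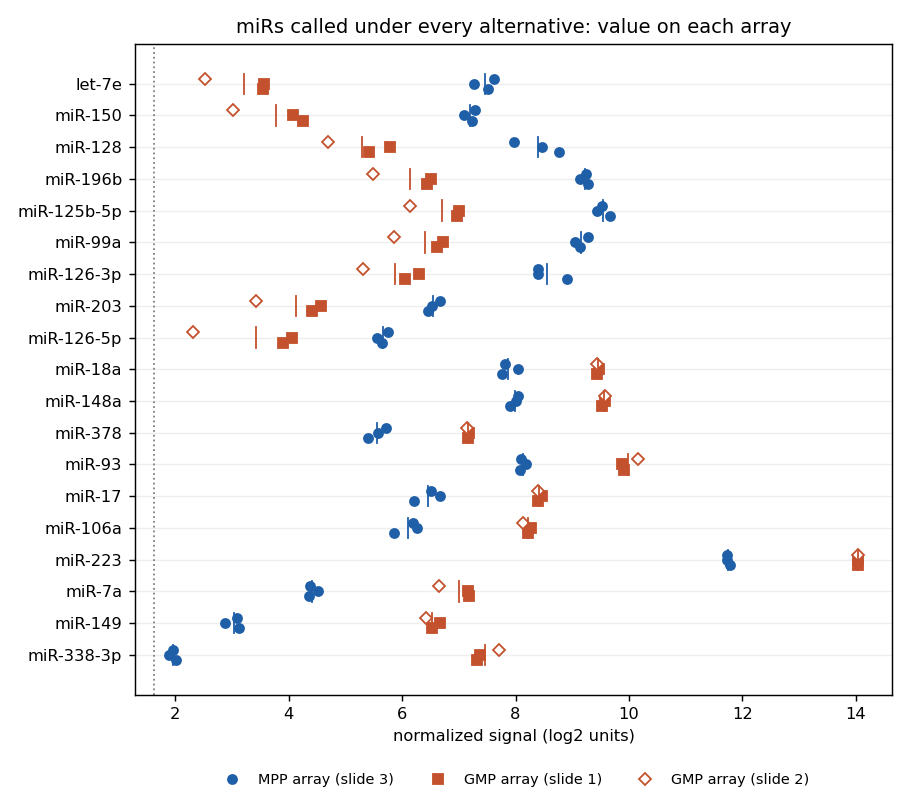
Normalized signal (log2, horizontal axis) of the 19 miRs called under every alternative that tested them, with a point for each array, vertical bars at the means of the 3 arrays, and a dotted line at the floor of 1.62. For each of the 19 the MPP arrays (blue) and the GMP arrays (red, open for slide 2) do not overlap, and for the 9 higher in MPP the GMP array of slide 2 is the lowest.

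The clusters that pair miR-99 or miR-100 with miR-125 and let-7 were higher in MPP for 5 of the 7 tested of the 12 members listed, and none was higher in GMP. The median difference over these 7 was 2.79 on the log2 scale, against 0.15 over all 237 tested miRs, and the 5 called were called in both fits. The calls in this and the following lists stand against 21.5% of all tested miRs higher in MPP and 21.1% higher in GMP. The cluster on chromosome 17 (mm9 chr17:17967164-17967840) holds miR-99b, let-7e and miR-125a.

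Let-7e, a let-7 encoded beside miR-125a, had log2 levels of 7.51, 7.26 and 7.61 in MPP and 3.54, 3.57 and 2.52 in GMP. Every MPP array was far above every GMP array, and it was well above background on only 1 of the 3 GMP arrays. The difference was 4.25 (SE 0.38) on the log2 scale, a 19.0-fold higher level in MPP (limma, adjusted p = 1.6e-06), and 3.15 with slide as a block. MiR-125a-5p, from the same cluster, had levels of 5.49, 5.23 and 5.69 in MPP and was at the floor of 1.62 on all 3 GMP arrays. It was at least 3.72-fold higher in MPP (adjusted p = 1.33e-07), with the bound taken against the lowest signal called above background. MiR-99b was also at the floor on all GMP arrays, with 4.38, 4.34 and 4.51 in MPP, and was at least 1.79-fold higher (adjusted p = 6.92e-08). The calls of miR-125a-5p and miR-99b ended only when the floor was raised to the largest negative control percentile of the 16 arrays.

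MiR-125b-5p and miR-99a are the second pair of these families and were measured on all 6 arrays. MiR-125b-5p, known for expanding stem cells and for its oncogenic action in leukemia, had levels of 9.66, 9.44 and 9.52 in MPP and 6.96, 7.01 and 6.13 in GMP. It was 7.17-fold higher in MPP, a log2 difference of 2.84 (SE 0.27, adjusted p = 3.72e-06).
The lowest MPP array lay well over the highest GMP array, and the blocked difference was 2.95. MiR-99a had 9.14, 9.06 and 9.28 in MPP against 6.62, 6.72 and 5.86 in GMP, a 6.76-fold higher level in MPP (difference 2.76, SE 0.24, adjusted p = 1.6e-06) and 3.19 with the block. In both miRs GMP 3 was the lowest array. MiR-100, which differs from miR-99a at 1 base, was not called: it had 5.17, 4.99 and 5.25 in MPP and 4.72, 5.13 and 3.36 in GMP, a difference of 0.74 (SE 0.43, adjusted p = 0.19). GMP 3 alone was low here, and with the block miR-100 was called higher in MPP (2.60, adjusted p = 0.00196).

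Of the 7 listed miRs encoded in the Hox clusters, 5 were tested and 2 were higher in MPP, both in both fits, with a median difference of 1.48. MiR-196b had log2 levels of 9.28, 9.14 and 9.24 in MPP and 6.43, 6.51 and 5.48 in GMP. It was 8.43-fold higher in MPP (difference 3.08, SE 0.34, adjusted p = 1.04e-05), and 3.39 with the block. The MPP arrays were close together, and the lowest GMP array was again GMP 3. MiR-10a had 9.79, 9.91 and 10.08 in MPP and 7.65, 7.83 and 6.57 in GMP, a 5.96-fold higher level in MPP (difference 2.58, SE 0.55, adjusted p = 0.00233), a call that ended without normalization between arrays. Their near-identical relatives were not called without the slide term. MiR-10b differed by 1.48 (SE 0.68, adjusted p = 0.0973), and its GMP levels of 4.91, 5.49 and 3.23 were spread widely. MiR-196a differed by 1.24 (SE 0.52, adjusted p = 0.071), but was called higher in MPP with the block (3.37, adjusted p = 0.000924).

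MiR-126, cut from an intron of Egfl7 and known for keeping stem cells quiescent, was higher in MPP in both arms of its hairpin (mm9 chr2:26446885-26446943). MiR-126-3p had levels of 8.90, 8.40 and 8.40 in MPP and 6.05, 6.29 and 5.30 in GMP. All MPP arrays were above all GMP arrays, with a difference of 2.68 (SE 0.35, adjusted p = 4.47e-05), 6.42-fold. The blocked difference was 4.32, and ST-HSC differed between slides 3 and 2 by -1.32. MiR-126-5p had 5.65, 5.56 and 5.75 in MPP and 3.91, 4.05 and 2.31 in GMP, a 4.70-fold higher level in MPP (difference 2.23, SE 0.46, adjusted p = 0.00186). MiR-222, which restrains translation of Kit, was 1.87-fold higher in MPP (difference 0.90, SE 0.18, adjusted p = 0.00134), a call that ended without normalization and with scaling to the 75th percentile over all probes. MiR-221 shares its seed and its transcript but was not called (0.45, SE 0.24, adjusted p = 0.152).

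Of the 11 miRs listed for their association with lymphoid cells, 9 were tested. Of these, 3 were higher in MPP, against 21.5% of all tested miRs, none was higher in GMP, and the median difference was 0.41. With slide as a block 5 were higher in MPP, the same 3 among them, and the median was 1.53. MiR-150, which controls Myb and rises in mature lymphocytes, had log2 levels of 7.24, 7.08 and 7.29 in MPP and 4.24, 4.08 and 3.02 in GMP. It was 10.7-fold higher in MPP (difference 3.42, SE 0.44, adjusted p = 4.22e-05) and 3.73 with the block. MiR-128, abundant in brain and in lymphoid leukemia, had 8.76, 8.47 and 7.97 in MPP and 5.41, 5.79 and 4.69 in GMP, an 8.61-fold higher level in MPP (difference 3.11, SE 0.37, adjusted p = 2.49e-05). For both miRs the CMP means, 5.47 and 6.51, lay between MPP and GMP. MiR-342-3p, hosted by Evl, differed by 1.36 (SE 0.44, adjusted p = 0.0246), but the call ended without MPP 1, without MPP 2, without GMP 1 and without GMP 3. The miR-181 family, known for setting the sensitivity of T cell receptor signaling, had no call among its 4 members with the seed ACAUUCA, although miR-181a and miR-181c were called higher in MPP with slide as a block. MiR-181a had 8.56, 8.28 and 8.37 in MPP and 8.0, 7.97 and 8.01 in GMP, which gave a difference of 0.41 (adjusted p = 0.333) and 1.63 with the block (adjusted p = 0.00206).

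Outside these lists, several miRs had levels near the floor in GMP and clear signal in MPP. MiR-151-5p had 5.51, 5.49 and 5.72 in MPP and 2.23, 2.51 and 2.08 in GMP, and was at least 4-fold higher in MPP (adjusted p = 1.33e-07). MiR-224, hosted by Gabre, had 4.68, 4.65 and 4.76 in MPP and 1.62, 1.62 and 1.73 in GMP, at least 2.18-fold higher (adjusted p = 1.33e-07). No GMP array was well above background for either, and both calls ended with the raised floor. MiR-203, known from skin, where it limits the growth of basal keratinocytes, had 6.46, 6.53 and 6.66 in MPP and 4.41, 4.56 and 3.43 in GMP. It was 5.34-fold higher in MPP (difference 2.42, SE 0.32, adjusted p = 4.47e-05), and the MPP arrays spread little.

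On the side of GMP, the list of granulocyte and monocyte miRs had 9 tested of 11 members, with 6 higher in GMP, 1 higher in MPP and a median difference of -1.41. With slide as a block the median was -0.36, and 3 members were called higher in GMP, miR-223, miR-338-3p and miR-149, against 3 called higher in MPP, miR-21, miR-34a and miR-322. The list had been drawn up with results of these arrays known, so its direction is no independent evidence.

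MiR-223, the myeloid miR that restrains the production and activation of granulocytes, had log2 levels of 11.79, 11.73 and 11.73 in MPP and 14.04 on all 3 GMP arrays. Its probe was the brightest of all probes on each GMP array, and quantile normalization gives the top rank the same value on every array, so its spread in GMP is not measured on this scale. Before normalization its signal was 3290, 3120 and 2880 units in MPP and 25600, 31700 and 9780 in GMP. Each GMP array was well above each MPP array, and MPP had clear signal too. The difference in miR-223 was -2.29 (SE 0.43, limma, adjusted p = 0.00092), a 4.91-fold higher level in GMP, -1.90 with the block (adjusted p = 0.0418), and -2.73 with scaling to the 75th percentile over all probes.

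MiR-338-3p, hosted by Aatk, had the largest fitted difference of the 237 tested miRs, with levels of 2.01, 1.89 and 1.96 in MPP and 7.31, 7.37 and 7.71 in GMP. It was not well above background on any MPP array and was bright on all GMP arrays, at least 22.7-fold higher in GMP (adjusted p = 2.5e-05). ST-HSC, however, differed between slides 3 and 2 by -3.21 for miR-338-3p, and the blocked difference was -2.28 (adjusted p = 0.0141). The GMP array on slide 2 was as high as those on slide 1. The other arm of its hairpin, miR-338-5p, was not called (0.52, adjusted p = 0.287), though it was higher in GMP with the block (-1.35, adjusted p = 0.00737).

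MiR-149 had 3.12, 2.88 and 3.08 in MPP and 6.53, 6.66 and 6.41 in GMP, an 11.4-fold higher level in GMP (difference -3.51, SE 0.39, adjusted p = 1.14e-05) and -2.16 with the block. MiR-7a, which acts on growth factor signaling, had 4.35, 4.52 and 4.37 in MPP and 7.18, 7.17 and 6.65 in GMP, a 6-fold higher level in GMP (difference -2.59, SE 0.35, adjusted p = 6.74e-05). Neither overlapped between the populations on any array. With the block miR-7a kept a difference of -0.94 at an adjusted p of 0.0479, close to the threshold. MiR-378, hosted by Ppargc1b, was named after its values were seen, because it was among those called under every alternative. It had 5.39, 5.58 and 5.71 in MPP and 7.17, 7.18 and 7.14 in GMP, a 3.04-fold higher level in GMP (difference -1.60, SE 0.26, adjusted p = 0.000357).

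Other members of the list were called in 1 of the fits or went the other way. MiR-142-3p, specific to blood cells, had 11.15, 11.40 and 11.49 in MPP and 12.70, 12.70 and 12.88 in GMP. The GMP arrays were all higher, with a difference of -1.41 (SE 0.44, adjusted p = 0.0207), but the call ended without MPP 1 and without GMP 3, and the blocked difference was 0.61. MiR-139-5p, hosted by Pde2a, differed by -1.68 (adjusted p = 0.00198) and by -0.80 with the block (adjusted p = 0.121). MiR-21, induced in myeloid cells and in many tumors, had 11.73, 11.92 and 12.07 in MPP and 10.89, 11.21 and 11.40 in GMP. Its arrays did not overlap, yet the difference of 0.74 (adjusted p = 0.0532) missed the threshold, and the blocked difference of 1.59 passed it (adjusted p = 0.00196). MiR-322, of the miR-424 family and known from monocytes, was higher in MPP in both fits (0.96, adjusted p = 0.00546, and 1.74).

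The miR-17-92 cluster, which drives proliferation and survival of early blood cells, and its paralogs on chromosome 5 and the X chromosome had 18 tested members of 23 listed. Of these 11 were higher in GMP and 2 higher in MPP, with a median difference of -0.80. With slide as a block 6 of the 11 were called, miR-17, miR-18a, miR-18a*, miR-93, miR-106a and miR-106b*, and neither of the 2. The call of miR-18a* ended without MPP 1, MPP 2 or GMP 2. MiR-17 had log2 levels of 6.21, 6.66 and 6.51 in MPP and 8.40, 8.47 and 8.40 in GMP, a 3.89-fold higher level in GMP (difference -1.96, SE 0.24, adjusted p = 2.5e-05). Its near-identical paralog miR-106a had 5.86, 6.26 and 6.19 in MPP and 8.22, 8.28 and 8.14 in GMP, 4.31-fold higher in GMP (difference -2.11, SE 0.27, adjusted p = 3.55e-05). In both the GMP arrays of the 2 slides lay close together and far above MPP. With the block the differences were -1.10 and -0.95.

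MiR-93, of the cluster on chromosome 5 (mm9 chr5:138606560-138607031), had 8.08, 8.19 and 8.10 in MPP and 9.91, 9.88 and 10.15 in GMP. It was 3.62-fold higher in GMP (difference -1.86, SE 0.27, adjusted p = 9.82e-05) and -0.81 with the block. MiR-18a, of the miR-17-92 cluster itself (mm9 chr14:115442915-115443718), had 7.76, 8.04 and 7.81 in MPP and 9.44, 9.48 and 9.44 in GMP. It was 2.99-fold higher in GMP (difference -1.58, SE 0.17, adjusted p = 9.14e-06), and the blocked difference of -1.83 was no smaller. The passenger strand miR-106b* had 2.35, 2.61 and 2.66 in MPP, where it was not well above background, and 5.48, 5.72 and 5.29 in GMP. It was at least 5.81-fold higher in GMP (adjusted p = 9.14e-06), a call that ended with the raised floor, while miR-106b itself was not called (0.45, adjusted p = 0.0561).

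Tested miRs placed in the miR-17-92 cluster did not move together. Each miR was placed at a single genomic position, so signal from copies encoded elsewhere cannot be told apart. MiR-20a had 10.66, 10.61 and 10.66 in MPP and 11.92, 12.07 and 11.73 in GMP, 2.39-fold higher in GMP (difference -1.26, adjusted p = 0.00092), and -0.34 with the block. MiR-92a went the other way, with 12.70 on all 3 MPP arrays and 11.73, 11.79 and 11.49 in GMP, 2.04-fold higher in MPP (difference 1.03, SE 0.24, adjusted p = 0.00401). Equal values on several arrays mark an equal rank in quantile normalization. MiR-19b, the member with the oncogenic action in lymphoma, was also higher in MPP (difference 1.18, SE 0.28, adjusted p = 0.00482). With the block the differences of miR-92a and miR-19b were 0.58 (adjusted p = 0.105) and 0.89 (adjusted p = 0.0993), and both calls also ended without normalization. Among the 10 tested miRs placed in this cluster 5 were higher in GMP and 2 in MPP. The 3 tested miRs placed in the cluster on the X chromosome (mm9 chrX:50094874-50095732), miR-106a, miR-20b and miR-363, were higher in GMP. Of these only miR-106a was called with the block, where miR-363 turned to 0.11, and the call of miR-363 ended in each leave-one-out but that without GMP 3.

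**Figure D4:**
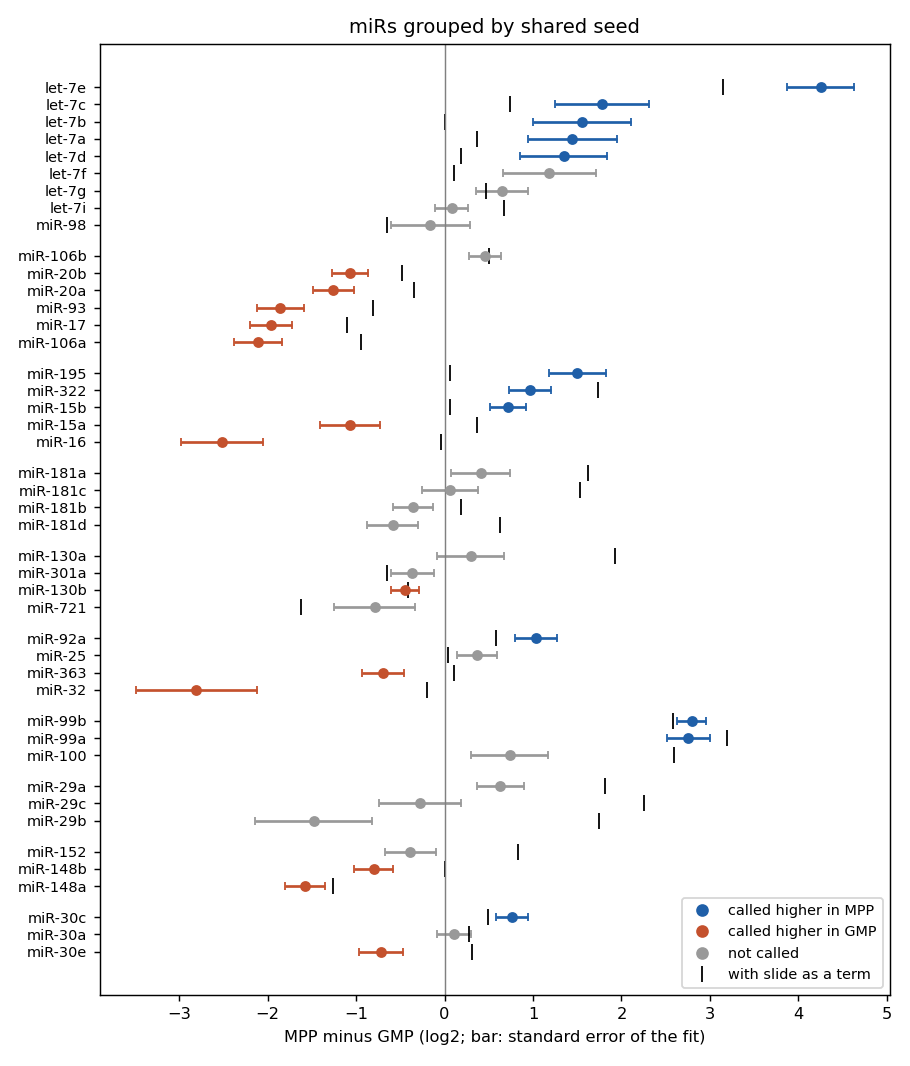
MPP minus GMP difference (log2, horizontal axis; bars are the standard error of the fit) of each tested miR, a row each, grouped by seed for families with 3 or more tested members, coloured by call, with the difference under the slide block as a black tick. The family of miR-17 lies on the GMP side except for miR-106b, the let-7 family lies mostly on the MPP side, and the families of miR-15a, miR-92a and miR-30a have called members on both sides, of which the ticks of all but miR-322 lie within 1 unit of 0.

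Across the array, 20 seed families had 2 or more tested members, and 10 of them had 2 or more called. In 7 of these 10 the called members were all higher in the same population, but several of the 7 had only 2 called members. This agreement was not tested against the shares of all tested miRs higher in MPP, 21.5%, and in GMP, 21.1%. The family with the seed AAAGUGC had 5 of 6 members higher in GMP, of which 3, miR-17, miR-93 and miR-106a, were called in both fits. For miR-27a and miR-27b, with the seed UCACAGU, neither call was made with slide as a block. Calls in both directions occurred in 3 families, those of miR-15, of miR-92a and of miR-30a.
In the family of miR-92a, miR-32 had 2.08, 3.26 and 3.23 in MPP and 5.51, 5.91 and 5.58 in GMP, a difference of -2.81 (SE 0.69, adjusted p = 0.00544) opposite to that of miR-92a. The blocked difference of miR-32 was -0.19. In the family of miR-30a, with the seed GUAAACA, miR-30c was higher in MPP (0.76, adjusted p = 0.00544) and miR-30e higher in GMP (-0.72, adjusted p = 0.034), but with the block neither was called and miR-30e turned to 0.31. The call of miR-30e, and with it the opposition, ended when any 1 of the 6 arrays was left out.

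The family of miR-15 and miR-16, which represses genes such as cyclins and Bcl2, had 5 tested members with the seed AGCAGCA, all called. MiR-16 had 9.0, 8.80 and 8.83 in MPP and 11.31, 11.73 and 11.15 in GMP, a 5.72-fold higher level in GMP (difference -2.51, SE 0.46, adjusted p = 0.00092). MiR-195 had 7.37, 7.65 and 7.75 in MPP and 5.91, 6.32 and 6.03 in GMP, 2.83-fold higher in MPP (difference 1.5, SE 0.32, adjusted p = 0.00233). MiR-15a, placed beside miR-16 on chromosome 14, differed by -1.07 (adjusted p = 0.0243). None of the 3 overlapped between the populations. Signal from copies of miR-16 encoded elsewhere cannot be told apart. The opposition of miR-16 and miR-15a to miR-195 did not extend to the blocked fit, where miR-16 was at -0.04, miR-195 at 0.06 and miR-15a at 0.37, none called. Of the other members, miR-322 was higher in MPP in both fits (0.96 and 1.74), and miR-15b (0.72) only without the block. ST-HSC differed between slides 3 and 2 by -2.20 for miR-16 and 1.43 for miR-195, much as MPP differed from GMP. Leaving out any 1 array other than GMP 1 also ended the call of miR-15a. The passenger strand miR-15b* was higher in GMP in both fits (-1.60, adjusted p = 0.000133, and -0.95).

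The let-7 family, known for promoting differentiation and repressing growth genes, had 9 tested members outside let-7e, of 15 listed, with 4 higher in MPP and none in GMP. The median difference was 1.19. Under the slide block 2 were higher in MPP and 1, miR-98, higher in GMP, and 0 of the 9 passed the threshold without normalization, nor did any with scaling to the 75th percentile over all probes. Let-7c had 11.03, 10.89 and 10.93 in MPP and 9.48, 9.52 and 8.51 in GMP, a 3.44-fold higher level in MPP (difference 1.78, SE 0.53, adjusted p = 0.0172). Its call held with the block (0.74, adjusted p = 0.0383) but ended without MPP 1 and without GMP 3. Let-7a had 12.24, 12.24 and 12.40 in MPP and 11.03, 11.31 and 10.19 in GMP (difference 1.44, SE 0.50, adjusted p = 0.034). On GMP 3 let-7a was the lowest, and its call ended in each leave-one-out but that without GMP 2. Let-7b (1.56, adjusted p = 0.0392) and let-7d (1.35, adjusted p = 0.0422) lost their calls without any 1 of the 6 arrays. The strand let-7c-2*, not among these 9, was called higher in GMP (-1.02). That call ended with the block and in each leave-one-out. ST-HSC differed between slides 3 and 2 by 1.83 for let-7c and 1.78 for let-7a, and with the block the differences of let-7a, let-7b and let-7d were 0.37, 0.00 and 0.19. Let-7e stood apart from the other members on the same arrays by the size of its own difference, which was not tested against theirs.

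The miR-130, miR-301, miR-148 and miR-152 group, which shares the seeds AGUGCAA and CAGUGCA, had 8 tested members of 9 listed. Of these 4 were higher in GMP, against 21.1% of all tested miRs, and none in MPP, with a median of -0.43. Under the slide block 1 was higher in GMP and 2 higher in MPP, with a median of -0.20. MiR-148a, known for acting on DNA methyltransferases, had 7.91, 8.01 and 8.04 in MPP and 9.52, 9.58 and 9.58 in GMP. All GMP arrays were higher by a similar amount, a 2.98-fold difference (-1.58, SE 0.22, adjusted p = 8.59e-05), and -1.26 with the block. It was the only member of the group called in both fits. MiR-301b (-1.27, adjusted p = 0.00258), miR-148b (-0.80, adjusted p = 0.0109, lost without MPP 1) and miR-130b (-0.45, adjusted p = 0.0409, lost in each leave-one-out) were called without the slide term. MiR-130a, known from megakaryocyte precursors, differed by 0.30 and was not called (adjusted p = 0.565), but with the block it was called higher in MPP (1.93, adjusted p = 0.00541).

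The clusters of miR-23, miR-27 and miR-24 had 6 tested members of 9 listed, 3 of them higher in GMP and a median of -0.64, but none was called with the block. MiR-27b had 7.22, 7.37 and 7.5 in MPP and 8.80, 8.98 and 9.09 in GMP, 3.02-fold higher in GMP (difference -1.60, SE 0.31, adjusted p = 0.00134), and -0.66 with the block (adjusted p = 0.144). MiR-27a, which targets Runx1, differed by -0.86 (adjusted p = 0.0422), and its call ended when any of the 6 arrays was left out. MiR-24-2*, not well above background on any MPP array, was at least 1.89-fold higher in GMP (adjusted p = 0.00814), with -0.13 under the block. MiR-324-5p, with 3.36, 3.22 and 3.05 in MPP and 5.54, 5.88 and 5.33 in GMP, had a similar course, -2.37 (adjusted p = 0.000989) and -0.02 with the block.

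Of the inflammation-induced miRs 4 of 7 were tested, with a median of 0.50, and 1 was called, against 42.6% of all tested miRs. With slide as a block 2 were higher in MPP and 1, miR-212, higher in GMP. MiR-155, induced by Toll-like receptor signaling, had 7.66, 7.4 and 7.54 in MPP and 6.74, 6.82 and 5.47 in GMP, a 2.29-fold higher level in MPP (difference 1.19, adjusted p = 0.046). Its call ended without MPP 1, MPP 2, MPP 3, GMP 1 or GMP 3, and the difference between GMP slides, 1.31, was larger. The related feedback inhibitors of this signaling were not called without the slide term. MiR-146a had 5.27, 5.17 and 5.56 in MPP and 4.84, 5.0 and 4.29 in GMP, a difference of 0.62 (adjusted p = 0.347), but with the block it was called higher in MPP (3.22, adjusted p = 0.000336). MiR-146b differed by -1.05 (adjusted p = 0.122) and was called in neither fit.

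The miR-29 and miR-30 families had 13 tested of 16 listed members, 2 higher in MPP, 1 higher in GMP and a median of 0.20. Over all tested miRs 21.5% were higher in MPP and 21.1% higher in GMP. No member with the seed AGCACCA of miR-29 was called. The fit with the slide block called 6 of the 13 higher in MPP, among them miR-29a, miR-29b and miR-29c, and none higher in GMP. MiR-29b had 8.47, 8.37 and 8.43 in MPP and 9.83, 9.91 and 9.97 in GMP. Its arrays were well apart, yet the difference of -1.48 had an adjusted p of 0.0878. The fit pools the spread of all populations, and ST-HSC differed between slides 3 and 2 by -3.39. With the block the sign turned, and miR-29b was called higher in MPP (1.74, adjusted p = 0.00309).

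Of the 70 listed miRs of the imprinted Dlk1-Dio3 region, a maternally expressed array of miRs linked to stem cell maintenance, only 7 were tested. Of these 2 were higher in MPP and 1 higher in GMP, against 21.5% and 21.1% of all tested miRs. MiR-487b had 6.62, 6.32 and 6.49 in MPP and 3.29, 3.49 and 5.03 in GMP (difference 2.54, SE 0.79, adjusted p = 0.021), but -1.37 with the block. MiR-770-3p was at least 2.26-fold higher in MPP (adjusted p = 0.0316) and also turned with the block, to -1.64. These were the 2 miRs called in opposite directions by the fits. GMP 3 stood above the other GMP arrays in both. The call of miR-487b ended without MPP 1, MPP 3, GMP 1 or GMP 2. That of miR-770-3p ended without MPP 1, MPP 2, MPP 3, GMP 1 or GMP 2, with the raised floor and with the log2 values deposited by the authors. MiR-494 had 9.35, 9.58 and 9.35 in MPP and 11.49, 10.12 and 11.31 in GMP (difference -1.55, adjusted p = 0.0147), a call that ended without GMP 1 and without GMP 3.

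Markers of other cells gave little signal apart from miRs named above. Of the erythroid markers, neither miR-486 nor miR-144 gave signal well above background on any of the 6 arrays, while miR-451 had 7.26, 5.11 and 6.74 in MPP and 5.33, 4.82 and 5.95 in GMP, overlapping (difference 1.01, adjusted p = 0.197). The summed erythroid signal ran from 41.7 to 165 units in MPP and from 34.4 to 76.9 in GMP. With slide as a block 1 of the 3 erythroid markers was called higher in MPP. Their median difference was 1.87 with the block and 0.07 without it. Of the 16 markers of muscle, liver, brain and epithelium on the array, 2 were detected on each MPP array, miR-203 and miR-200b, and at most 1 on a GMP array, with summed signal of 144 to 154 and 66.5 to 90.0 units, and both were called higher in MPP. The call of miR-200b ended with the block and in each leave-one-out but that without GMP 2. Its relatives miR-141, at 1.62 on all MPP arrays and 3.03, 3.21 and 3.04 in GMP, and miR-200c, at 1.62 and 2.54, 2.97 and 2.17, had their higher values in GMP but were not well above background on any of the 6 arrays, and were not tested. Of the stromal and vascular markers only miR-126-3p was detected, and miR-143, miR-145, miR-199a-5p and miR-214 were at or near the floor on all 6 arrays. Summed signal over these was 349 to 490 units in MPP and 51.7 to 90.4 in GMP, nearly all of it miR-126-3p. Their part in the results was not tested. The granulocyte-monocyte marker miR-223 was brighter on every GMP array. The stem and multipotent markers miR-125a-5p, miR-125b-5p, miR-99a and miR-126-3p were brighter on every MPP array. These markers were named with earlier results of these arrays known, so this is no independent check of the labels. MiR-322, of the granulocyte and monocyte list, was higher in MPP, and miR-100, of the miR-99 family, overlapped between the populations.

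**Figure D5:**
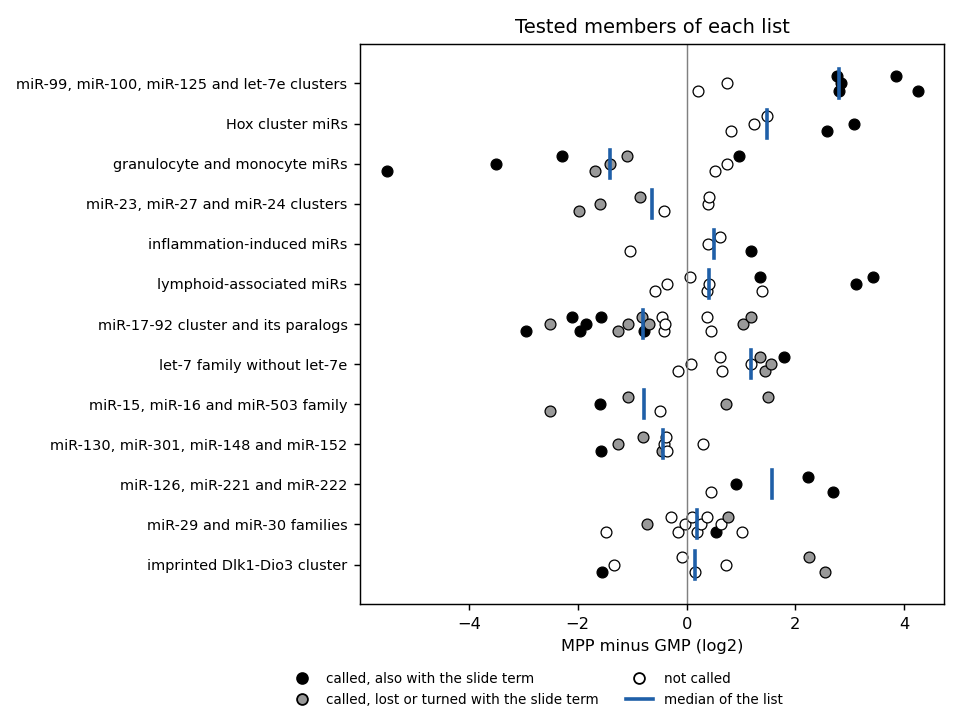
MPP minus GMP difference (log2, horizontal axis) of every tested member of each list of miRs (rows), filled black where also called with the slide term, grey where the call was lost or turned with it and white where not called, with a bar at the median of the list. The clusters of miR-99, miR-100, miR-125 and let-7e lie on the MPP side and those of miR-17-92 and its paralogs mostly on the GMP side.

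The number of miRs detected, counting a miR when a probe of it was well above background, was 208, 226 and 219 in MPP and 187, 196 and 178 in GMP. Every MPP array detected more than every GMP array, and the means were 217.7 ± 9.07 and 187 ± 9 (SD, n = 3 each). The difference of 30.7 had p = 0.1 in a two-sided exact permutation test, the smallest that 3 arrays against 3 allow. Its direction rested on the detection rule, since the difference was -1.67 (exact permutation p = 1) when any spot well above background was enough. The slide with the higher negative controls held 2 of the GMP arrays, and the part of background in this number was not tested.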

How the data were processed

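Bone marrow RNA was hybridised to single-color Agilent mouse miR arrays with 5 to 20 spots per probe. The deposited scanner files hold the intensity of each spot, background-subtracted by Feature Extraction and not normalized between arrays. The authors also deposited log2 values, quantile-normalized with limma. Coordinates in the files are mm9.

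Outlier and control spots were left out and spots averaged per probe. Intensities of all 16 arrays were quantile-normalized, floored at 3.07 units, which is 1.62 after log2 and the median of the arrays' 95th percentiles of negative controls, and log2-transformed. Probes had to be well above background (a share of at least 0.5 of spots) on at least 3 arrays, and the brightest of a miR stood for it, which left 493 of 1712 probes and 237 of 577 miRs. A fit with a mean per population used lmFit and eBayes (limma 3.58.1, R 4.3.3, data.table of version 1.17.8), two-sided, with 10 residual and 3.1 prior degrees of freedom and Benjamini-Hochberg adjustment over the 237 miRs. Folds of miRs that no array of 1 population measured well above background are bounds against the lowest signal called above background. Precision is limited by the small number of arrays. On simulated data with 237 miRs and 20 runs the fit recovered 53.7% of log2 changes of 1 and 88.8% of changes of 2. The share of false calls there was 3.7%. Since population and slide cannot be told apart on the MPP and GMP arrays, these shares give no error rate for the calls here.

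The members, lists and alternatives were chosen with earlier results of these data known. Named were the 10 largest called differences in each direction with no overlap and all 3 higher arrays above background, up to 4 per list, fixed miRs of hematopoiesis, and seed families with 3 or more tested members. MiRs named beside these were chosen after their values were seen. Alternatives covered normalization, normexp background correction (offset 50), floor, detection filter, probe summary, the authors' log2 values, slide and replicate number as blocks, and arrays left out in turn. Replicate numbers were not taken to pair samples.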

Additional observations from a re-analysis of the deposited data

How the results depend on the processing

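Of the 101 calls, 65 were made in all 6 fits that left out 1 array (32 higher in MPP, 33 higher in GMP), and those fits called 71 to 84 miRs, 34 to 43 higher in MPP and 36 to 41 higher in GMP. Without normalization between arrays 45 miRs were called, 21 higher in MPP and 24 higher in GMP. With the floor at the largest negative control percentile the numbers were 62, 33 and 29. Restricted to the 152 miRs detected on all 6 arrays they were 67 called and 30 higher in MPP. The fit with the GMP array of slide 2 alone called 65, 27 of them higher in GMP, and that with slide as a block 33 higher in GMP. The difference in detected miRs was -1.67 (exact permutation p = 1) when any spot above background counted. Without normalization 44 of the calls lay beyond the GMP slide difference. That difference had a median of 0.40, of 1.40 without normalization and of 0.676 after scaling to the 75th percentile of all probes. Among calls, 51 of 101 were higher in MPP, or 63.2% after scaling to the 75th percentile of detected probes, where the median of all miRs shifted from 0.15 to 0.36, 38.5% after scaling to that of all probes and 61.2% with the slide block.

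With slide as a block the sign of 15 of the 101 called miRs turned. Among the named miRs, called or not, it turned for miR-23b (-0.33), miR-212 (-1.25), miR-150* (-1), miR-15a (0.37), miR-148b (0.01), miR-29b (1.74), miR-30e (0.31), miR-487b (-1.37), miR-770-3p (-1.64), miR-144 (1.90), miR-142-3p (0.61) and miR-363 (0.11). With the GMP array of slide 2 alone it turned for miR-212 (-0.56) and miR-486 (-0.93). Scaling to the 75th percentile of all probes turned miR-221 (-0.03), miR-181a (-0.03), miR-130a (-0.17) and miR-486 (-0.06), scaling to that of detected probes miR-486 (-0.11), and no normalization miR-130a (-0.12). MiR-486 was also at -0.02 with the mean of its probes and with at least 2 probes required, and from -0.27 to 0.58 when 1 array was left out. The causes were not tested.

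The replicate block called 101 miRs, 53 higher in MPP and 48 higher in GMP. Residuals of MPP and GMP arrays with the same number correlated at -0.12, -0.124 and -0.375, and since 2 of the numbers were assigned here they were not taken to pair samples. Depth could not be assessed on arrays, and changes of miRs near the floor are bounds.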

Other observations

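Of the 30 matched hairpins with both arms tested, 2 had arms called in opposite directions, those of miR-15b and let-7c-2. In miR-15b the guide was higher in MPP (0.72), a call that ended with slide as a block and without GMP 1. Its passenger strand miR-15b* was higher in GMP (-1.60) in both fits. Both arms of miR-191 were higher in GMP, at -1.61 and, for miR-191*, -1.05. The call of miR-191 ended with the block and without GMP 1 or GMP 2, while that of miR-191* was also made with the block. MiR-21* was at least 2.99-fold higher in GMP (limma, adjusted p = 0.00186), a call that ended with the block, while miR-21 had a difference of 0.74 and was not called. Star strands made up 2 of the 51 miRs higher in MPP and 9 of the 50 higher in GMP, against 20 of the 136 not called. Differences between these shares were not tested.

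Of the 46 groups of tested miRs within 10000 bases of each other, 6 had calls in both directions. The median GC content of the mature sequences was 45.5% for the miRs higher in MPP and for those higher in GMP, and 47.8% for those not called, over the 39, 42 and 103 of them with a RefSeq sequence.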
